A study of Saccharomyces cerevisiae with 12 samples.

Results

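The genes described here are 37 genes for subunits of ATP-dependent chromatin remodelers in the budding yeast Saccharomyces cerevisiae, out of 6120 genes in the deposited table. They were chosen by name and not by a cut on their values, but with earlier results of these data known. They are 9 genes of SWI/SNF, 14 of RSC, 6 of the ISWI group, CHD1, 3 of INO80 and 4 of SWR1. All 37 were found in the table, and all 37 passed the filter on low values (a mean of at least 10 over the 12 libraries). Poly(A) RNA of 1 strain, pJD47, was sequenced in quiescence, a reversible arrest of starved cells, during exit from it and in logarithmic growth. These 4 groups are called stages here. Q cells had spent 7 days in water with 10 mM D3-acetate (deuterated acetate), without glucose. E30 and E240 cells had the same 7 days and were then washed and put back into liquid medium for 30 min or 240 min. LOG cells were growing logarithmically. The labels give them no days of quiescence and no time of exit, so LOG is not a later time of the same exit. The cultures had been started from colonies on plates with 2% glucose, and the liquid medium is not described further in the labels. Each stage had n = 3 libraries, which the series calls biological replicates. Nothing in the labels says that the 3 were separate cultures throughout, so the p-values measure the spread between these libraries, which may in part be technical.

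Chromatin remodelers use ATP to slide, eject or exchange nucleosomes, the DNA spools that otherwise cover promoters. SWI/SNF opens the promoters of inducible genes, and its genes were found as mutants that could not switch mating type or ferment sucrose. RSC, its essential and more abundant relative, keeps nucleosomes away from the promoters of most active genes, and it is known to act in quiescent yeast and during exit. ISW1, ISW2 and CHD1 space nucleosomes over genes, while SWR1 puts the histone variant H2A.Z into nucleosomes beside promoters and INO80 moves nucleosomes there. On the R64 (sacCer3) annotation the 7 ATPase genes are single coding exons at chrXV:855147-860258 (SNF2), chrIX:117992-122071 (STH1), chrII:708150-711539 (ISW1), chrXV:884514-887876 (ISW2), chrV:505392-509798 (CHD1), chrVII:221104-225573 (INO80) and chrIV:1135932-1140476 (SWR1). The values below are messenger RNA levels of the genes for these machines, not amounts or activities of the complexes.

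Values are normalised read counts, that is, reads per gene divided by 1 size factor per library by the authors. They give a gene's level relative to the rest of its own library: fewer cells with a transcript and less transcript per cell cannot be told apart, nor can a change in total RNA per cell be seen. Libraries held 1195233 to 5220494 recovered reads in Q, 7943459 to 11866340 in E30, 11572190 to 12428294 in E240 and 13480102 to 15100323 in LOG. Noise from counting few reads was thus largest in Q, while the spread between replicate libraries was largest in LOG, as given below. In Q replicate 1 a single read was worth 6.97 units, and the lowest value of any of the 37 genes, 83.7 for HTL1 in that library, came from 12 reads. Log2 fold changes are on the log2(value + 1) scale, with their standard error (SE), from limma fitted to all 5871 genes tested, and are written as change ± SE. Adjusted p-values are Benjamini-Hochberg values over all of them, and a gene rose or fell where its adjusted p was under 0.05. Called means called in this fit, without a block, unless another setting is named.

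Replicate 1 stood apart from replicates 2 and 3 at every stage, most of all in LOG. Over all genes tested, replicate 1 differed from the mean of the other two by a median log2 difference of 0.387 in Q, 0.331 in E30, 0.388 in E240 and 0.639 in LOG. Replicates 2 and 3 differed from each other by 0.130, 0.0991, 0.0678 and 0.209 in the same order of stages. Within a stage, the SD of a gene's log2 values had a median of 0.247 in Q, 0.208 in E30, 0.234 in E240 and 0.416 in LOG. Because 1 spread per gene was shared by the 4 stages, p-values of comparisons with LOG may be too small. Of 7 genes known to be high in starved or acetate-fed cells, 4 fell in E30 against Q and all 7 in E240 against Q. Of 5 genes of growing cells, all 5 rose in E240 against Q. The 7 markers of starved cells summed to 134562 to 165486 in Q, 44498 to 51433 in E30, 4587 to 10982 in E240 and 3274 to 48321 in LOG, lowest in LOG replicate 1 and highest in LOG replicate 2. HSP12, a stress gene among them, was at 1297, 38799.9 and 22735 in LOG replicates 1, 2 and 3. The part of this difference in the results below was not tested. The 8 markers of sporulation, another fate of yeast in acetate, summed to 1916 to 2866 in Q, 1688 to 1723 in E30, 1179 to 1387 in E240 and 948 to 1110.2 in LOG, and none of the 8 was at 0 in any library. Of these 8 genes, 1 rose and 4 fell in E240 against Q.

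Over the 4 stages, 25 of the 37 remodeler genes differed by limma's F test, where 70.5% of all genes tested did. By group these were 6 of 9 SWI/SNF genes, 12 of 14 RSC genes, 3 of 6 ISWI genes, CHD1, none of 3 INO80 genes and 3 of 4 SWR1 genes. With total-count scaling 28 were called by this F test (4468 of all 5878 genes tested with it), and RSC2, RSC8, LDB7 and IOC3 no longer were. With the replicate number as a block 30 were called (4869 of all 5871 genes), with RSC4, IOC2, INO80, IES1 and IES2 added and none lost, so that all 3 INO80 genes passed. Without all 4 libraries numbered 1, 34 were called, again with all 3 INO80 genes, but 5530 of all 5870 genes tested were called there too. In the first 30 min (E30 against Q), 9 of the 37 rose and 5 fell, where 20.6% of all genes rose and 23.7% fell. From 30 to 240 min (E240 against E30), 5 rose and 3 fell, against backgrounds of 13.3% and 14.0%. In LOG against E240, 2 rose, where 3.27% of all genes did, and none fell, where 4.09% did. For that count of 0, limma gave 3 falls at an unadjusted p under 0.05, edgeR gave 0 and DESeq2 gave 1. Against quiescent cells 14 rose and 7 fell in E240, with 29.1% and 29.5% of all genes, and 14 rose and 5 fell in LOG, with 28.8% and 27.8%. The median log2 fold change of the 37 genes was 0.07 in E30 against Q (-0.07 for all genes), 0.15 in E240 against E30 (-0.01), -0.05 in LOG against E240 (-0.01), 0.24 in E240 against Q (0.01) and 0.15 in LOG against Q (0.05). As shares of the 37, rises were near or above these backgrounds and falls were below them, and neither was tested.

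With each library scaled to its total reads, the counts that rose and fell became 14 and 3 in E30 against Q, 1 and 7 in E240 against E30, 0 and 3 in LOG against E240, 11 and 9 in E240 against Q and 4 and 12 in LOG against Q. That scaling moved the median of all genes by 0.25, -0.45, -0.27, -0.20 and -0.47 in the same order. Relative to that shift no gene of the 37 moved by more than 0.0018, and no called gene changed sign. Directions below are therefore relative to the bulk of genes. With the replicate number as a block, 13 rose and 7 fell in E30 against Q, 11 and 5 in E240 against E30, 4 and 1 in LOG against E240, 15 and 8 in E240 against Q and 16 and 7 in LOG against Q, and no call was lost. Over all 5871 genes the block gave 1550 rises and 1799 falls in E30 against Q and 1155 and 1159 in E240 against E30. It gave 544 and 522 in LOG against E240, 2010 and 1991 in E240 against Q and 2024 and 1895 in LOG against Q. Without all 4 libraries numbered 1 the counts were 16 and 10 in E30 against Q, 13 and 7 in E240 against E30, 9 and 11 in LOG against E240, 16 and 11 in E240 against Q and 17 and 12 in LOG against Q. Of all 5870 genes tested there, 1931 rose and 2260 fell in E30 against Q, and 1776 and 1782 in E240 against E30. The counts were 1872 and 1802 in LOG against E240, 2317 and 2309 in E240 against Q and 2343 and 2232 in LOG against Q. Leaving out single libraries also moved the counts. Between 3 and 14 genes rose and 4 to 6 fell in E30 against Q, 2 to 11 rose and 0 to 5 fell in E240 against E30, and 0 to 5 rose and 0 to 5 fell in LOG against E240. The number called of all genes tested also moved, over 2074 to 3238, 1011 to 2280 and 48 to 2076 in the same order. The libraries whose absence moved a count by over 1.5 times were Q 1, Q 3, E30 1, E30 2, E30 3, E240 3 and LOG 1 in E30 against Q (5, 4, 5, 5, 3, 5 and 14 genes that rose), where Q 1 means Q replicate 1 and so on. In E240 against E30 they were Q 1, E30 2, E30 3, E240 1, E240 2, E240 3 and LOG 1 (9, 2, 2, 3, 3, 2 and 11 that rose), and for the 3 falls E30 2, E30 3, E240 1, E240 2, E240 3 and LOG 1 (1, 1, 0, 1, 1 and 5 that fell). In LOG against E240 the 2 rises became 0 without any one of Q 2, Q 3, E30 2, E30 3, E240 2, E240 3, LOG 2 and LOG 3, and without LOG 1 there were 5 rises and 5 falls. Of all 5876 genes tested without LOG 1, 1108 rose and 968 fell in LOG against E240. In LOG against Q, 8 genes fell without LOG 1, where 1806 of all 5876 did. By the F test over the 4 stages 22 to 29 genes were called. SWI1 was lost without any one of Q 1, Q 2, E30 2, E30 3, E240 2, E240 3 and LOG 3, STH1 without any one of Q 1, Q 2, Q 3, E30 2, E240 1, E240 2 and E240 3, RSC2 without Q 2 or Q 3, and RSC3 and RSC58 without Q 1.

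**Figure D1:**
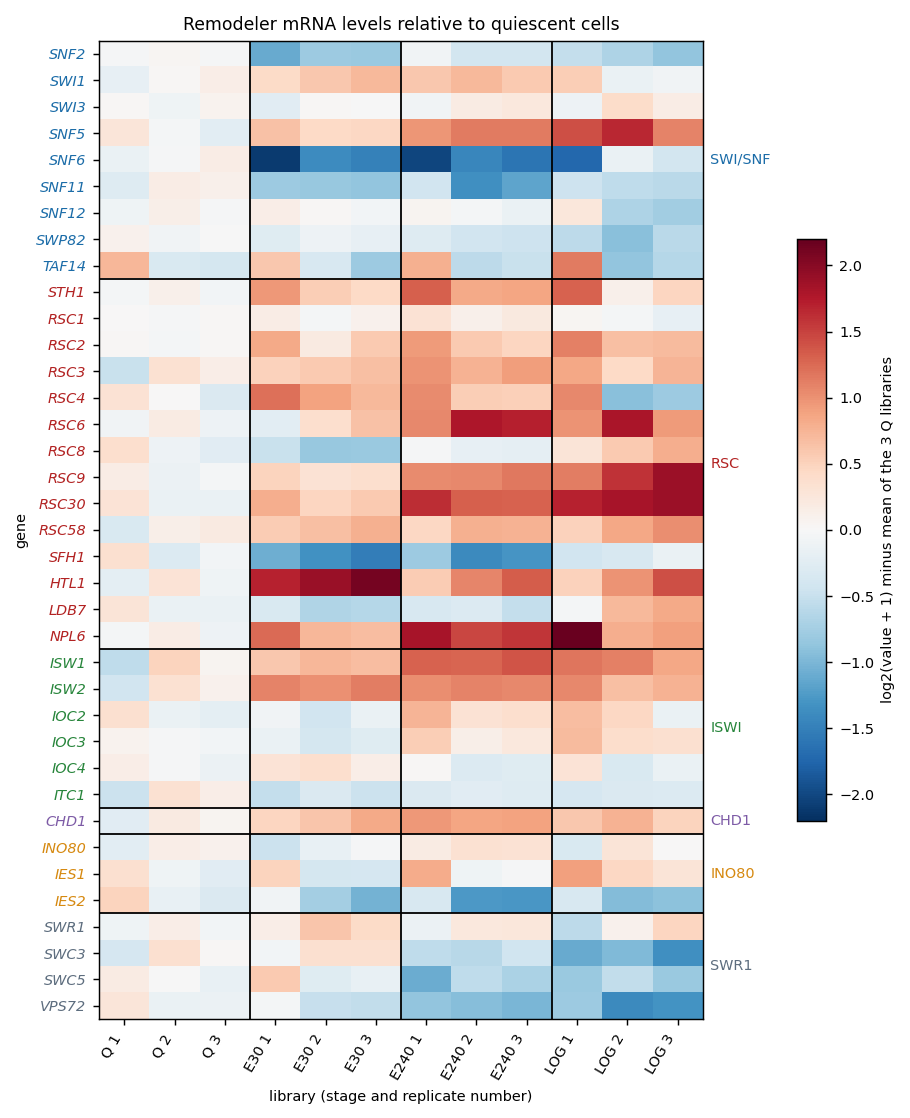
Log2(value + 1) of the 37 remodeler genes in each of the 12 libraries minus the mean of the 3 Q libraries of that gene. Columns are libraries in the order Q, E30, E240 and LOG, rows are genes in the order of the groups, and red is above and blue below the Q mean. Most RSC rows are red after Q while SNF6 and SFH1 are blue at E30 and E240, and the LOG 1 column differs from LOG 2 and LOG 3 in rows such as RSC4, TAF14 and SNF6.

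Upstream sequences are shown for 2 pairs of related SWI/SNF and RSC genes, the ATPase pair SNF2 and STH1 and the pair SNF5 and SFH1, because the ratios within these pairs, given below, differed between Q and the later stages in opposite directions. Each runs 5′ to 3′ on the strand of its gene over 200 bases, from 300 to 101 bases before the start codon, read from the RefSeq R64 genome (the sacCer3 build). Capitals mark matches to 4 motifs searched in the 300 bases before the start codon, on both strands: PAC (GATGAG), RRPE (AAAAATTT), STRE (AGGGG) and the Rsc3/Rsc30 site (CGCGC).
SNF2: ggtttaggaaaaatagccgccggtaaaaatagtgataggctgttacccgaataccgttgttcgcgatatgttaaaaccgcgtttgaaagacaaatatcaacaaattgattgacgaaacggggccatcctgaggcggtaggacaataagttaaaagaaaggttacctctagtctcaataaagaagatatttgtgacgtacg
STH1: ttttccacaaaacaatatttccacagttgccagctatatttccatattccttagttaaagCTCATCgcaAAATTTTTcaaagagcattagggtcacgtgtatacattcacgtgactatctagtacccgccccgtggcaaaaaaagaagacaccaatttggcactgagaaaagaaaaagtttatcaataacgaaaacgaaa
SNF5: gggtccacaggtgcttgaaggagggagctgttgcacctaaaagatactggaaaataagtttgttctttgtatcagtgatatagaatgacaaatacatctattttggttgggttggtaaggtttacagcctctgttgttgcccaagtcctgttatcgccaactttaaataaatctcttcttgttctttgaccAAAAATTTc
SFH1: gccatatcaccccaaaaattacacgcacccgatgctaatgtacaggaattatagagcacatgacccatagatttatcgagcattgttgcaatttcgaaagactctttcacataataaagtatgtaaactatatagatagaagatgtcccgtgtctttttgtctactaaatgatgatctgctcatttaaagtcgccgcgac
The windows lie at chrXV:860359-860558, chrIX:117692-117891, chrII:779367-779566 and chrXII:777965-778164, on the minus, plus, plus and minus strand, and the SNF5 window runs into the coding sequence of its neighbour YBR288C. The STH1 window holds a PAC and an RRPE match on the strand opposite to the gene, SNF5 holds an RRPE match, and SNF2 and SFH1 hold none of the 4. Nearer to the start codon STH1 also has a CGCGC match on the opposite strand, at base -6. Of all 37 genes, 3 had a PAC match within 300 bases (STH1, RSC1 and RSC8), where 19.1% of all 6001 promoters of that length had one. RRPE was found in 5 of the 37 (15.1% of all promoters), STRE in 6 (22.2%) and CGCGC in 4 (720 of the 6001). The only matches that overlapped each other were the 2 PAC matches of RSC8. A match is a description of letters and not of binding.

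SWI/SNF genes did not move as a unit. For the counts of each group below, 20.6% of all genes rose and 23.7% fell in E30 against Q, and 13.3% and 14.0% in E240 against E30. The shares were 3.27% and 4.09% in LOG against E240, 29.1% and 29.5% in E240 against Q, and 28.8% and 27.8% in LOG against Q. No group was tested against them. Of 9 genes, 1 rose and 3 fell in E30 against Q (median log2 -0.18), 1 rose and none fell in E240 against E30 (0.05), none was called in LOG against E240 (-0.02), 2 rose and 2 fell in E240 against Q (-0.10), and 1 rose and 2 fell in LOG against Q (-0.40). For the falls at 0 in E240 against E30, limma at an unadjusted p under 0.05, edgeR and DESeq2 also gave 0. For LOG against E240, limma gave 1 rise and 2 falls at an unadjusted p under 0.05, edgeR gave 0 and 0, and DESeq2 gave 1 and 0. SNF2, the gene for the ATPase that drives the complex, fell in the first 30 min and was higher again at 240 min. SNF2 had normalised read counts of 1151, 1214 and 1158 in Q, 544, 675 and 669.5 in E30, 1118, 885 and 892 in E240, and 815, 734 and 646 in LOG. All 3 E30 libraries lay below all Q and all E240 libraries, and the 3 LOG libraries lay below those of E240. SNF2 changed by -0.90 ± 0.18 (adjusted p = 0.00156) in E30 against Q, by 0.61 ± 0.18 (adjusted p = 0.0232) in E240 against E30 and by -0.69 ± 0.18 (adjusted p = 0.00555) in LOG against Q. The rise from 30 to 240 min was no longer called without any one of E30 1, E30 2, E30 3, E240 1 and E240 3 (adjusted p between 0.051 and 0.0783), and with total-count scaling.

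SNF6, for a subunit found only in SWI/SNF, showed the largest fall of the 37 genes in the first 30 min by fitted fold change. SNF6 had normalised read counts of 3473, 3801 and 4336 in Q, 898, 1473 and 1379 in E30, 953, 1417 and 1269 in E240, and 1168, 3497 and 2909 in LOG. Every E30 and E240 library lay below every Q library, and the LOG libraries were split, with LOG 1 at the E240 level and LOG 2 and LOG 3 well above it. The fall was -1.66 ± 0.36 (adjusted p = 0.00282) in E30 against Q and -1.69 ± 0.36 (adjusted p = 0.00151) in E240 against Q. LOG against E240 gave 0.93 ± 0.36 (adjusted p = 0.131), called with the replicate block (adjusted p = 0.0254), and LOG against Q gave -0.76 ± 0.36 (adjusted p = 0.0895, and 0.0153 with the block). SNF11, for a small subunit that binds Snf2, averaged 1193 ± 189 in Q, 662 ± 15.0 in E30, 627 ± 228 in E240 and 815 ± 39.0 in LOG (SD, n = 3 each), and it fell, at -0.84 ± 0.23 (adjusted p = 0.0115) in E30 against Q and -0.97 ± 0.23 (adjusted p = 0.00325) in E240 against Q. The SNF11 call in E30 against Q ended with total-count scaling.

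SNF5, for a core subunit that contacts activators and the nucleosome, moved the other way. SNF5 had normalised read counts of 286, 230.4 and 203 in Q, 371, 322 and 327 in E30, 467, 526 and 528 in E240, and 639, 754 and 508 in LOG. Each stage lay above the one before with no overlap from Q to E30 and from E30 to E240, and E240 and LOG overlapped. The difference was 0.52 ± 0.20 (adjusted p = 0.0535) in E30 against Q and 0.58 ± 0.20 (adjusted p = 0.0503) in E240 against E30, neither called. Both were called with the replicate block (adjusted p = 0.0277 and 0.0243) and also with TMM scaling, with DESeq2 and with the 2 groups fitted alone. Against Q it rose by 1.09 ± 0.20 (adjusted p = 0.00055) in E240 and by 1.39 ± 0.20 (adjusted p = 9.34e-05) in LOG. SWI1, for a DNA-binding subunit that activators contact, averaged 389.7 ± 44.9 in Q, 581 ± 59.9 in E30, 599.6 ± 31.2 in E240 and 427 ± 119 in LOG (SD, n = 3 each). It rose by 0.58 ± 0.21 (adjusted p = 0.0393) in E30 against Q and by 0.63 ± 0.21 (adjusted p = 0.0205) in E240 against Q. The first of these calls ended without any one of Q 1, Q 2, Q 3, E30 2, E30 3, E240 2 and E240 3 (adjusted p between 0.0558 and 0.131) and the second without either of Q 1 and E240 2 (adjusted p between 0.0651 and 0.0678) and with total-count scaling.

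Of the 4 remaining SWI/SNF genes, SWP82 alone was called in any of the 5 comparisons. It encodes an accessory subunit and was lower at each stage than at the one before. SWP82 had normalised read counts of 1158, 1018 and 1069 in Q, 902, 1003 and 953 in E30, 884, 805 and 785 in E240, and 722, 571 and 717 in LOG. The stages did not overlap, and LOG against Q gave -0.70 ± 0.17 (adjusted p = 0.00333). E240 against Q gave -0.39 ± 0.17 (adjusted p = 0.059), called with the block (adjusted p = 0.032). SWI3, for the scaffold subunit, overlapped between all stages. SWI3 had normalised read counts of 1332, 1229 and 1386 in Q, 1103, 1336 and 1299 in E30, 1253, 1495 and 1539.6 in E240, and 1218, 1741 and 1469 in LOG. Its changes ran from -0.08 to 0.20 on the log2 scale over the 5 comparisons, none called. SNF12, for another core subunit, was not called in any comparison either. SNF12 had normalised read counts of 432, 504 and 451 in Q, 508, 470.1 and 444 in E30, 483, 447 and 415 in E240, and 547, 289 and 272 in LOG. LOG 1 was the highest of the 12 libraries and LOG 2 and LOG 3 were the lowest. TAF14, for a subunit that SWI/SNF shares with general transcription factors and other chromatin complexes, averaged 779.6 ± 369.8 in Q, 698 ± 360.2 in E30, 751 ± 430.5 in E240 and 827 ± 679.6 in LOG (SD, n = 3 each). Its replicate 1 was higher than the mean of replicates 2 and 3 by 1.09, 1.18, 1.31 and 1.89 on the log2 scale in Q, E30, E240 and LOG, and no comparison was called.

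RSC genes rose more often than they fell, where 29.1% of all genes rose and 29.5% fell in E240 against Q. Of 14, 5 rose and 2 fell in E30 against Q (median log2 0.56), 3 rose and 1 fell in E240 against E30 (0.23), 2 rose and none fell in LOG against E240 (0.05), 9 rose and 1 fell in E240 against Q (0.80), and 9 rose and none fell in LOG against Q (0.73). For both counts of 0 falls, limma at an unadjusted p under 0.05, edgeR and DESeq2 gave 0 as well. The median of the 14 genes relative to Q lay between 0.42 and 0.58 in the 3 E30 libraries, between 0.77 and 0.96 in E240 and between 0.68 and 0.91 in LOG. The same median of the 9 SWI/SNF genes lay between -0.25 and -0.11 in E30, between -0.41 and -0.07 in E240 and between -0.59 and -0.11 in LOG, so the 2 medians did not overlap in these 9 libraries, while single genes of the groups did, such as SFH1 and SNF5.

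STH1, the gene for the ATPase of RSC, was higher at every stage after Q. STH1 had normalised read counts of 1039, 1147 and 1018 in Q, 2062, 1555 and 1449 in E30, 2652, 1910.0 and 1955 in E240, and 2639, 1158 and 1478 in LOG. All 9 later libraries lay above the 3 Q libraries, and replicate 1 was the highest of its stage at E30, E240 and LOG. E240 against Q gave 1.01 ± 0.28 (adjusted p = 0.00804). The other comparisons with Q were not called, at 0.65 ± 0.28 (adjusted p = 0.0792) for E30 and 0.63 ± 0.28 (adjusted p = 0.0718) for LOG. Both were called with the block (adjusted p = 0.0244 and 0.0224). The first was also called with total-count scaling, with the 2 groups fitted alone and without LOG 1, and the second with edgeR, with DESeq2 and without LOG 2. RSC30 and RSC3, for the paired zinc cluster proteins that read CGCG-type DNA sites, both rose. RSC30 had normalised read counts of 307, 226 and 225 in Q, 438, 349 and 373 in E30, 774, 624 and 617 in E240, and 814, 878 and 919 in LOG. RSC30 lay higher at each stage than at the one before, without overlap. It rose by 0.62 ± 0.19 (adjusted p = 0.019) in E30 against Q, by 0.79 ± 0.19 (adjusted p = 0.00911) in E240 against E30, by 1.42 ± 0.19 (adjusted p = 5.43e-05) in E240 against Q and by 1.80 ± 0.19 (adjusted p = 9.09e-06) in LOG against Q, the largest fitted rise of the 37 genes in LOG against Q. The 30 min call ended without any one of Q 2, Q 3 and E30 1 (adjusted p between 0.0674 and 0.077), and the call in E240 against E30 with total-count scaling. RSC3 had normalised read counts of 251, 443 and 392 in Q, 501, 527 and 560.4 in E30, 702, 599 and 668 in E240, and 635, 479.6 and 590.2 in LOG. RSC3 was above Q at each later stage, and LOG overlapped E240. It rose by 0.59 ± 0.22 (adjusted p = 0.0467) in E30 against Q, by 0.89 ± 0.22 (adjusted p = 0.00394) in E240 against Q and by 0.68 ± 0.22 (adjusted p = 0.0192) in LOG against Q. The 30 min call of RSC3 ended without any one of Q 1, Q 3, E30 1, E30 2, E30 3, E240 1, E240 2, E240 3 and LOG 3 (adjusted p between 0.0514 and 0.166), with TMM scaling, with edgeR and with the 2 groups fitted alone. The LOG call of RSC3 ended without either of Q 1 and LOG 3 (adjusted p between 0.0516 and 0.0702) and with the 2 groups fitted alone. Without Q 1 the RSC3 change was 0.34 in E30 against Q and 0.44 in LOG against Q.

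The largest fitted rise of all 37 genes in the first 30 min was that of HTL1, for a small RSC subunit. HTL1 had normalised read counts of 83.7, 121 and 91.9 in Q, 318, 367 and 421 in E30, 145, 207 and 247 in E240, and 139, 196 and 261 in LOG. All E30 libraries lay above all others, and E240 and LOG lay between E30 and Q and overlapped each other. HTL1 rose by 1.90 ± 0.28 (adjusted p = 0.000252) in E30 against Q and fell, at -0.91 ± 0.28 (adjusted p = 0.0299), in E240 against E30. It was still up against Q, at 0.99 ± 0.28 (adjusted p = 0.00847) in E240 and 0.97 ± 0.28 (adjusted p = 0.0101) in LOG. The fall ended without any one of E30 2, E30 3, E240 1 and E240 2 (adjusted p between 0.0657 and 0.108). NPL6, for the subunit also called Rsc7, which joins HTL1, LDB7 and the zinc cluster pair in a module, was higher after Q. NPL6 had normalised read counts of 404, 471 and 386 in Q, 998, 699.9 and 674 in E30, 1481, 1157 and 1247 in E240, and 1888, 733 and 786 in LOG. It did not overlap Q at any later stage, and LOG 1 stood far above LOG 2 and LOG 3. It rose by 0.89 ± 0.32 (adjusted p = 0.0373) in E30 against Q, by 1.62 ± 0.32 (adjusted p = 0.000864) in E240 against Q and by 1.29 ± 0.32 (adjusted p = 0.004) in LOG against Q, and the first call ended without any one of Q 1, Q 2, Q 3, E30 1, E30 2, E30 3 and E240 3 (adjusted p between 0.0512 and 0.131). In LOG against Q the NPL6 change was 0.86 without LOG 1 and still called. E240 against E30 gave 0.73 ± 0.32 (adjusted p = 0.109, and 0.0405 with the block). LDB7, the remaining gene of the module, was low at 30 and 240 min and high in LOG. LDB7 had normalised read counts of 1193, 892 and 892 in Q, 779, 620.5 and 638 in E30, 767, 798 and 686 in E240, and 955, 1604 and 1752 in LOG. Its E30 libraries lay below Q, and LOG lay above E240. LDB7 changed by -0.54 ± 0.24 (adjusted p = 0.0822) in E30 against Q, which was not called, and rose by 0.89 ± 0.24 (adjusted p = 0.0426) in LOG against E240. That rise was lost without any one of Q 2, Q 3, E30 2, E30 3, E240 1, E240 2, E240 3, LOG 2 and LOG 3 (adjusted p between 0.0642 and 0.18), with total-count scaling and with the 2 groups fitted alone.

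SFH1, whose product is the RSC relative of Snf5, fell in the first 30 min. SFH1 had normalised read counts of 3187, 2029 and 2409 in Q, 1187, 997 and 869 in E30, 1436, 944 and 1013 in E240, and 1870.5, 1947 and 2249 in LOG. E30 and E240 lay below Q without overlap, and LOG overlapped Q. It fell, at -1.31 ± 0.23 (adjusted p = 0.000776) in E30 against Q and -1.17 ± 0.23 (adjusted p = 0.000881) in E240 against Q, and rose by 0.86 ± 0.23 (adjusted p = 0.0426) in LOG against E240. That last call ended without any one of Q 2, Q 3, E30 2, E30 3, E240 2, E240 3, LOG 2 and LOG 3 (adjusted p between 0.0534 and 0.183), with total-count scaling and with the 2 groups fitted alone. RSC8, the relative of SWI3 and the RSC scaffold, also dipped at 30 min. RSC8 had normalised read counts of 4512, 3245 and 2944 in Q, 2493, 1969 and 1991 in E30, 3445, 3081 and 3065 in E240, and 4286, 5197 and 6092 in LOG. E30 lay below Q and E240, and LOG lay above E30 and E240 and overlapped Q. RSC8 fell, at -0.71 ± 0.22 (adjusted p = 0.0196) in E30 against Q, a call lost without any one of Q 1, E30 2 and E30 3 (adjusted p between 0.0703 and 0.0724) and with total-count scaling. LOG against Q gave a rise of 0.55 ± 0.22 (adjusted p = 0.0485), lost without any one of Q 2, Q 3, E30 2, E30 3, E240 1, E240 2, E240 3, LOG 2 and LOG 3 (adjusted p between 0.0514 and 0.179), with total-count scaling, with edgeR and with the 2 groups fitted alone. E240 against E30 gave 0.58 ± 0.22 (adjusted p = 0.0696) and LOG against E240 gave 0.69 ± 0.22 (adjusted p = 0.0813), called with the block (adjusted p = 0.0425 and 0.0413).

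RSC6, the relative of SNF12, and RSC9, for an ARID-type subunit, rose later. RSC6 had normalised read counts of 530.0, 633 and 514 in Q, 472, 716 and 871 in E30, 1155, 1912 and 1822 in E240, and 1099, 1943 and 1065 in LOG. E30 overlapped Q, and all E240 and LOG libraries lay above both. RSC6 rose by 1.26 ± 0.30 (adjusted p = 0.0087) in E240 against E30, the largest fitted rise of that step among the 37 genes, and by 1.24 ± 0.30 (adjusted p = 0.0036) in LOG against Q. RSC9 had normalised read counts of 509, 411 and 441 in Q, 638, 567 and 586 in E30, 927, 946 and 1009 in E240, and 989.7, 1358 and 1674 in LOG. RSC9 lay higher at each stage up to E240 without overlap, and LOG 1 lay inside the E240 range. It rose by 0.69 ± 0.20 (adjusted p = 0.0249) in E240 against E30, by 1.09 ± 0.20 (adjusted p = 0.000595) in E240 against Q and by 1.53 ± 0.20 (adjusted p = 4.6e-05) in LOG against Q. The first of these was lost without any one of E30 2, E30 3, E240 2 and E240 3 (adjusted p between 0.0675 and 0.0873) and with total-count scaling.

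RSC1 and RSC2 encode bromodomain proteins that take the same place in 2 forms of RSC. RSC1 had normalised read counts of 523, 516 and 529 in Q, 583, 508 and 559.8 in E30, 654, 565 and 610.2 in E240, and 538, 505 and 463 in LOG. RSC1 stayed between 463 and 654 and was called in no comparison. RSC2 had normalised read counts of 349, 332 and 352 in Q, 612, 393 and 514 in E30, 657, 513 and 477 in E240, and 741, 544 and 561 in LOG. RSC2 lay above Q at every later stage, without overlap. It rose by 0.66 ± 0.21 (adjusted p = 0.0188) in E240 against Q and by 0.82 ± 0.21 (adjusted p = 0.00586) in LOG against Q, and E30 against Q gave 0.53 ± 0.21 (adjusted p = 0.0606, and 0.0148 with the block). The E240 call ended without either of Q 2 and E240 1 (adjusted p between 0.0529 and 0.0703) and with total-count scaling. The RSC2 coding sequence overlaps the gene YLR358C on the other strand by 514 bases, and no label or note at hand gives the strand setting of the counting, so the RSC2 values may hold reads of that strand. RSC4, whose double bromodomain reads acetylated histone H3, averaged 646 ± 140.4 in Q, 1229 ± 219 in E30, 1046 ± 226 in E240 and 672 ± 559 in LOG (SD, n = 3 each). LOG 1 was at 1318 against 334 and 366 in LOG 2 and LOG 3, E30 against Q gave 0.94 ± 0.43 (adjusted p = 0.0922, and 0.0198 with the block), and no comparison was called. Without LOG 1 RSC4 was called in each comparison except E240 against E30, and with the 2 groups fitted alone it was called in E30 against Q and in E240 against Q. RSC58, for a further essential subunit, averaged 1014 ± 191 in Q, 1589 ± 126 in E30, 1597 ± 200.4 in E240 and 1747 ± 311 in LOG (SD, n = 3 each). It rose by 0.66 ± 0.21 (adjusted p = 0.0215) in E30 against Q, by 0.67 ± 0.21 (adjusted p = 0.0156) in E240 against Q and by 0.79 ± 0.21 (adjusted p = 0.00648) in LOG against Q. Its E30 call ended without any one of Q 1, E30 2 and E30 3 (adjusted p between 0.0562 and 0.0799), and its E240 call without any one of Q 1, E240 2 and E240 3 (adjusted p between 0.0589 and 0.0614) and with total-count scaling.

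The genes for the 2 ISWI ATPases and for Chd1 rose, and most genes for the ISWI partner proteins were not called. Of the 6 ISWI genes 2 rose and none fell in E30 against Q (median log2 0.03), 1 rose and none fell in E240 against E30 (0.36), none was called in LOG against E240 (-0.10), 2 rose and none fell in E240 against Q (0.39), and 3 rose and none fell in LOG against Q (0.41). Of these counts of 0, DESeq2 gave 1 fall in E30 against Q and limma gave 1 fall at an unadjusted p under 0.05 in E240 against E30, and the others were 0 by limma unadjusted, edgeR and DESeq2. ISW2 had normalised read counts of 446, 748 and 633 in Q, 1271, 1192 and 1301 in E30, 1214, 1271 and 1248 in E240, and 1235, 945 and 1008 in LOG. Every ISW2 library after Q lay above every Q library, and E30 and E240 overlapped. It rose by 1.07 ± 0.20 (adjusted p = 0.00129) in E30 against Q and by 0.82 ± 0.20 (adjusted p = 0.00425) in LOG against Q. ISW1 had normalised read counts of 377, 780.0 and 575 in Q, 838, 917 and 882 in E30, 1353, 1338 and 1442 in E240, and 1251, 1190.3 and 1001 in LOG. ISW1 lay higher at 30 min and again at 240 min without overlap and was lower in LOG than in E240. It rose by 0.67 ± 0.23 (adjusted p = 0.0355) in E30 against Q, by 1.31 ± 0.23 (adjusted p = 0.000442) in E240 against Q and by 1.05 ± 0.23 (adjusted p = 0.00227) in LOG against Q, while E240 against E30 gave 0.65 ± 0.23 (adjusted p = 0.0575, and 0.0346 with the block). The 30 min call of ISW1 ended without any one of Q 1, Q 3, E30 1, E30 2, E30 3, E240 2 and E240 3 (adjusted p between 0.0505 and 0.126), with edgeR and with the 2 groups fitted alone, and the change was 0.39 without Q 1. CHD1 had normalised read counts of 607, 822 and 751 in Q, 1002, 1107 and 1281 in E30, 1401, 1319 and 1325 in E240, and 1082, 1220.5 and 1016 in LOG. CHD1 lay higher at the same 2 stages without overlap and was lower in LOG than in E240. The rise was 0.64 ± 0.18 (adjusted p = 0.0119) in E30 against Q, 0.90 ± 0.18 (adjusted p = 0.00096) in E240 against Q and 0.61 ± 0.18 (adjusted p = 0.0114) in LOG against Q. The 30 min call of CHD1 ended without E30 3 (adjusted p = 0.0634), and the LOG call with total-count scaling and with the 2 groups fitted alone. Total-count scaling also ended the LOG against Q calls of ISW1, ISW2, HTL1, NPL6, RSC2, RSC3 and RSC58.

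Among the partner proteins, IOC3 forms one complex with Isw1, IOC2 and IOC4 form another, and ITC1 is the partner of Isw2. IOC3 averaged 680.3 ± 34.2 in Q, 566 ± 50.2 in E30, 842 ± 127 in E240 and 956 ± 129.7 in LOG (SD, n = 3 each), with the lowest values at 30 min. It rose by 0.57 ± 0.18 (adjusted p = 0.0346) in E240 against E30 and by 0.48 ± 0.18 (adjusted p = 0.0355) in LOG against Q. The first call ended without any one of Q 2, Q 3, E30 2, E30 3, E240 1, E240 2 and E240 3 (adjusted p between 0.05001 and 0.127) and with total-count scaling, and the second without any one of Q 2, Q 3, E30 3, E240 3 and LOG 1 (adjusted p between 0.0533 and 0.101), with total-count scaling and with the 2 groups fitted alone. IOC2 averaged 603 ± 137 in Q, 513 ± 64.3 in E30, 834 ± 142 in E240 and 765 ± 211 in LOG (SD, n = 3 each). E240 against E30 gave 0.69 ± 0.25 (adjusted p = 0.0545, and 0.0107 with the block) and E240 against Q gave 0.48 ± 0.25 (adjusted p = 0.114, and 0.0335 with the block). IOC4 averaged 1075 ± 107 in Q, 1293 ± 100.3 in E30, 950.4 ± 124 in E240 and 1045 ± 244 in LOG (SD, n = 3 each), and E240 against E30 gave -0.45 ± 0.20 (adjusted p = 0.115, and 0.0399 with the block). ITC1 averaged 1137 ± 309.5 in Q, 818 ± 61.8 in E30, 909.8 ± 22.9 in E240 and 877 ± 21.3 in LOG (SD, n = 3 each), and E30 against Q gave -0.44 ± 0.20 (adjusted p = 0.101, and 0.0483 with the block). IOC2, IOC4 and ITC1 were thus called in no comparison, but other settings than the block called them too. In E240 against E30, IOC2 was called with edgeR, DESeq2 and the 2 groups fitted alone, and IOC4 with total-count scaling and the 2 groups fitted alone. ITC1 was called with DESeq2 in E30 against Q and with total-count scaling in LOG against Q, and without Q 1 in each of its comparisons with Q.

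The 3 INO80 genes gave 1 call in the 5 comparisons. None was called in E30 against Q (median log2 -0.22), E240 against E30 (0.32), LOG against E240 (0.23) or LOG against Q (-0.01), and 1 fell in E240 against Q (0.24). At an unadjusted p under 0.05 limma gave 1 rise in E240 against E30 and 1 fall in LOG against Q, and edgeR and DESeq2 gave 0 for all these counts of 0. INO80 had normalised read counts of 1359.9, 1771 and 1719 in Q, 1163, 1430.4 and 1576 in E30, 1815, 2030.4 and 2014 in E240, and 1277, 1964 and 1621 in LOG. The gene for the ATPase, INO80, was lowest at 30 min, and E240 lay above Q and E30 without overlap. E240 against E30 gave 0.50 ± 0.21 (adjusted p = 0.0956, and 0.0191 with the block), and no comparison was called. This one was called also with the 2 groups fitted alone and without LOG 1. IES2, for a subunit that stimulates the ATPase, averaged 1846 ± 576 in Q, 1209.6 ± 427 in E30, 961 ± 382 in E240 and 1096 ± 264 in LOG (SD, n = 3 each), with replicate 1 the highest of each stage. It fell, at -0.97 ± 0.33 (adjusted p = 0.0236) in E240 against Q, a call lost without any one of Q 1, E240 2 and E240 3 (adjusted p between 0.0879 and 0.101). E30 against Q gave -0.62 ± 0.33 (adjusted p = 0.143) and LOG against Q gave -0.73 ± 0.33 (adjusted p = 0.0752) for IES2, called with the block (adjusted p = 0.00371 and 0.000961). IES1, for a subunit of the same complex, averaged 752 ± 168 in Q, 726 ± 269 in E30, 910.1 ± 345 in E240 and 1102 ± 248 in LOG (SD, n = 3 each), and LOG against Q gave 0.55 ± 0.31 (adjusted p = 0.149, and 0.00698 with the block).

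Of the 4 SWR1 genes chosen here, SWC3, SWC5 and VPS72 fell from 240 min on, and the gene for the ATPase did not. None of 4 was called in E30 against Q (median log2 0.13) or LOG against E240 (-0.17), 2 fell in E240 against E30 (-0.66), 3 fell in E240 against Q (-0.66) and 3 fell in LOG against Q (-0.93), with no rise in any comparison. For LOG against E240, limma gave 1 fall at an unadjusted p under 0.05 and DESeq2 gave 1, and all other counts of 0 were also 0 by limma unadjusted, edgeR and DESeq2. SWR1 had normalised read counts of 1458, 1731 and 1503 in Q, 1733, 2379.5 and 2088 in E30, 1428, 1827 and 1848 in E240, and 1051, 1674 and 2176 in LOG. SWR1, the ATPase gene, was above Q in all E30 libraries and otherwise overlapped, and no comparison was called. SWC3 had normalised read counts of 481, 787 and 628 in Q, 592, 792 and 788 in E30, 422, 404 and 458 in E240, and 288, 316 and 242 in LOG. SWC3, for a subunit of the complex, overlapped between Q and E30 and lay lower at E240 and again in LOG without overlap. It fell, at -0.75 ± 0.22 (adjusted p = 0.0232) in E240 against E30, -0.53 ± 0.22 (adjusted p = 0.049) in E240 against Q and -1.14 ± 0.22 (adjusted p = 0.00069) in LOG against Q, and LOG against E240 gave -0.61 ± 0.22 (adjusted p = 0.107, and 0.0437 with the block). The call of SWC3 in E240 against E30 ended without any one of E30 2, E30 3, E240 1, E240 2 and E240 3 (adjusted p between 0.0526 and 0.0916), and that in E240 against Q without any one of Q 2, Q 3, E30 2, E30 3, E240 1, E240 2, E240 3 and LOG 2 (adjusted p between 0.0523 and 0.2), with no filter on low values and with the 2 groups fitted alone. SWC5 had normalised read counts of 802, 703 and 628 in Q, 1054, 587 and 631 in E30, 333, 481 and 434 in E240, and 399.8, 488 and 400.2 in LOG. SWC5, for a subunit needed for the exchange of H2A.Z, was below both Q and E30 in every E240 and LOG library. It fell, at -0.83 ± 0.24 (adjusted p = 0.0243) in E240 against E30, -0.78 ± 0.24 (adjusted p = 0.0147) in E240 against Q and -0.73 ± 0.24 (adjusted p = 0.0223) in LOG against Q. The first call was lost without any one of E30 1, E240 1 and E240 3 (adjusted p between 0.0571 and 0.0872), the second without E240 1 (adjusted p = 0.0576) and the third without any one of Q 1, Q 2 and LOG 3 (adjusted p between 0.0509 and 0.0698). VPS72, for the subunit that binds H2A.Z, averaged 2318 ± 396 in Q, 1807 ± 370.3 in E30, 1202 ± 56.6 in E240 and 1037 ± 249.8 in LOG (SD, n = 3 each), and all E240 and LOG libraries lay below all Q and E30 libraries. It fell, at -0.93 ± 0.22 (adjusted p = 0.00299) in E240 against Q and -1.17 ± 0.22 (adjusted p = 0.000677) in LOG against Q, and E240 against E30 gave -0.57 ± 0.22 (adjusted p = 0.0743, and 0.0108 with the block). Other subunits of the complex went both ways in E240 against Q. YAF9 rose by 0.59 ± 0.23 (adjusted p = 0.0415) and SWC7, low in Q, by 1.49 ± 0.55 (adjusted p = 0.0333). The shared subunits RVB1 and RVB2 rose by 2.21 ± 0.23 and 1.15 ± 0.20 (adjusted p = 8.98e-06 and 0.000328). ARP6 and BDF1 fell, at -0.93 ± 0.19 and -1.15 ± 0.18 (adjusted p = 0.00114 and 0.0002). SWC4, VPS71 and ARP4 were not called, at -0.30 ± 0.19, 0.04 ± 0.19 and 0.21 ± 0.44.

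**Figure D2:**
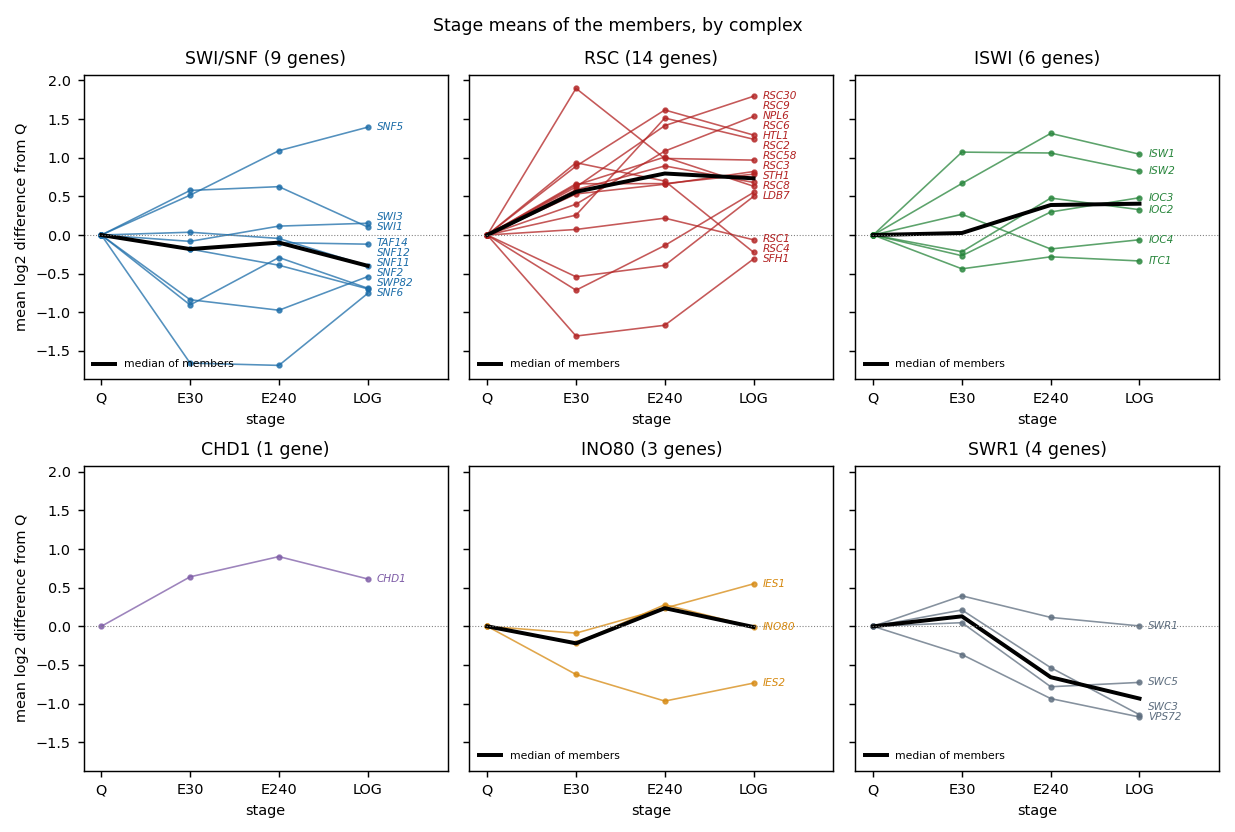
Mean log2 difference from Q (vertical axis) at Q, E30, E240 and LOG (horizontal axis) for each gene, 1 panel per group, as means of 3 libraries, with the median of the group's genes as a thick black line. The RSC median is at 0.56 in E30 and 0.80 in E240, the SWI/SNF median lies between -0.40 and -0.10 at the later stages, and the SWR1 median is at 0.13 in E30, -0.66 in E240 and -0.93 in LOG.

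SWI/SNF and RSC share 5 pairs of related subunits, and their balance was compared as the log2 ratio of the first gene to the second within each library. Such a ratio does not depend on the scaling of the library, and its level carries the lengths of both genes, so that only its change between stages is compared. The upstream sequences printed above belong to the ATPase pair, SNF2 and STH1, and to SNF5 and SFH1.

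SNF2/STH1 was near 0 in Q and lower at every later stage. SNF2/STH1 was 0.15, 0.08 and 0.19 in Q, -1.92, -1.20 and -1.11 in E30, -1.25, -1.11 and -1.13 in E240, and -1.69, -0.66 and -1.19 in LOG on the log2 scale. All Q ratios lay above all later ones, and E30, E240 and LOG overlapped. Over the 4 stages the ratio differed (exact permutation F test over all 369600 divisions of the 12 libraries, adjusted p = 0.0205 over 8 pairs). Without all 4 libraries numbered 1 the SNF2/STH1 test gave an adjusted p of 0.105 (exact permutation). SNF5/SFH1 went the other way. SNF5/SFH1 was -3.47, -3.13 and -3.57 in Q, -1.67, -1.62 and -1.41 in E30, -1.62, -0.84 and -0.94 in E240, and -1.55, -1.37 and -2.14 in LOG on the log2 scale. All Q ratios lay below all later ones, and the stage means spanned 2.26 on the log2 scale (exact permutation test, adjusted p = 0.00844). Against Q, the E30 libraries thus had less SNF2 for their STH1 and more SNF5 for their SFH1.

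SWP82/NPL6 was lower at E30 and lower still at E240. SWP82/NPL6 was 1.51, 1.11 and 1.47 in Q, -0.14, 0.52 and 0.50 in E30, -0.74, -0.52 and -0.67 in E240, and -1.38, -0.36 and -0.13 in LOG on the log2 scale. Q lay above E30 and E30 above E240 without overlap (exact permutation test, adjusted p = 0.00623). SNF12/RSC6 was lower in E240 and in LOG than in Q and E30. SNF12/RSC6 was -0.29, -0.33 and -0.19 in Q, 0.11, -0.61 and -0.97 in E30, -1.26, -2.09 and -2.13 in E240, and -1.01, -2.75 and -1.97 in LOG on the log2 scale. All E240 and LOG ratios lay below all of Q and E30 (exact permutation test, adjusted p = 0.0242). That call ended without Q 3 (adjusted p = 0.0501) and without LOG 3 (0.0511) by the same exact permutation test. SWI3/RSC8 was highest at 30 min and lowest in LOG. SWI3/RSC8 was -1.76, -1.40 and -1.09 in Q, -1.18, -0.56 and -0.62 in E30, -1.46, -1.04 and -0.99 in E240, and -1.81, -1.58 and -2.05 in LOG on the log2 scale. E30 overlapped Q and E240 at its E30 1 library, and LOG lay below E240 (exact permutation test, adjusted p = 0.0224). The SWI3/RSC8 call ended without E30 2, E30 3 or LOG 3 (adjusted p = 0.0551, 0.0531 and 0.0657, exact permutation). Of the 5 pairs, 3 had a lower ratio of the SWI/SNF gene to the RSC gene in every E240 library than in every Q library (SNF2/STH1, SNF12/RSC6 and SWP82/NPL6), SNF5/SFH1 had a higher one, and SWI3/RSC8 overlapped.

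The 3 pairs of related genes within RSC and ISWI also differed over the stages. RSC1/RSC2 was 0.58, 0.63 and 0.59 in Q, -0.07, 0.37 and 0.12 in E30, -0.01, 0.14 and 0.36 in E240, and -0.46, -0.11 and -0.28 in LOG on the log2 scale. RSC1/RSC2 was highest in Q and lowest in LOG, with no overlap between either and the other stages (exact permutation test, adjusted p = 0.00623), and the overlap of RSC2 with a gene on the other strand applies here too. RSC3/RSC30 was -0.29, 0.97 and 0.80 in Q, 0.19, 0.59 and 0.59 in E30, -0.14, -0.06 and 0.11 in E240, and -0.36, -0.87 and -0.64 in LOG on the log2 scale. RSC3/RSC30 was lower in LOG than at any other stage (exact permutation test, adjusted p = 0.0282). The RSC3/RSC30 call ended without Q 3, E30 2, E30 3, LOG 2 or LOG 3 (exact permutation, adjusted p = 0.0522, 0.0552, 0.0551, 0.102 and 0.0718). ISW1/ISW2 was -0.24, 0.06 and -0.14 in Q, -0.60, -0.38 and -0.56 in E30, 0.16, 0.07 and 0.21 in E240, and 0.02, 0.33 and -0.01 in LOG on the log2 scale. ISW1/ISW2 dipped in all 3 E30 libraries, below every other library (exact permutation test, adjusted p = 0.00779), and gave 0.0871 without all libraries numbered 1. All 8 pairs were called, and the smallest p the test allows is 6.49e-05. No other gene pairs were tested, so this count has no background share beside it. Of all single genes tested, 70.5% differed over the stages by limma's F test. The test finds any difference over the stages and does not compare single stages.

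**Figure D3:**
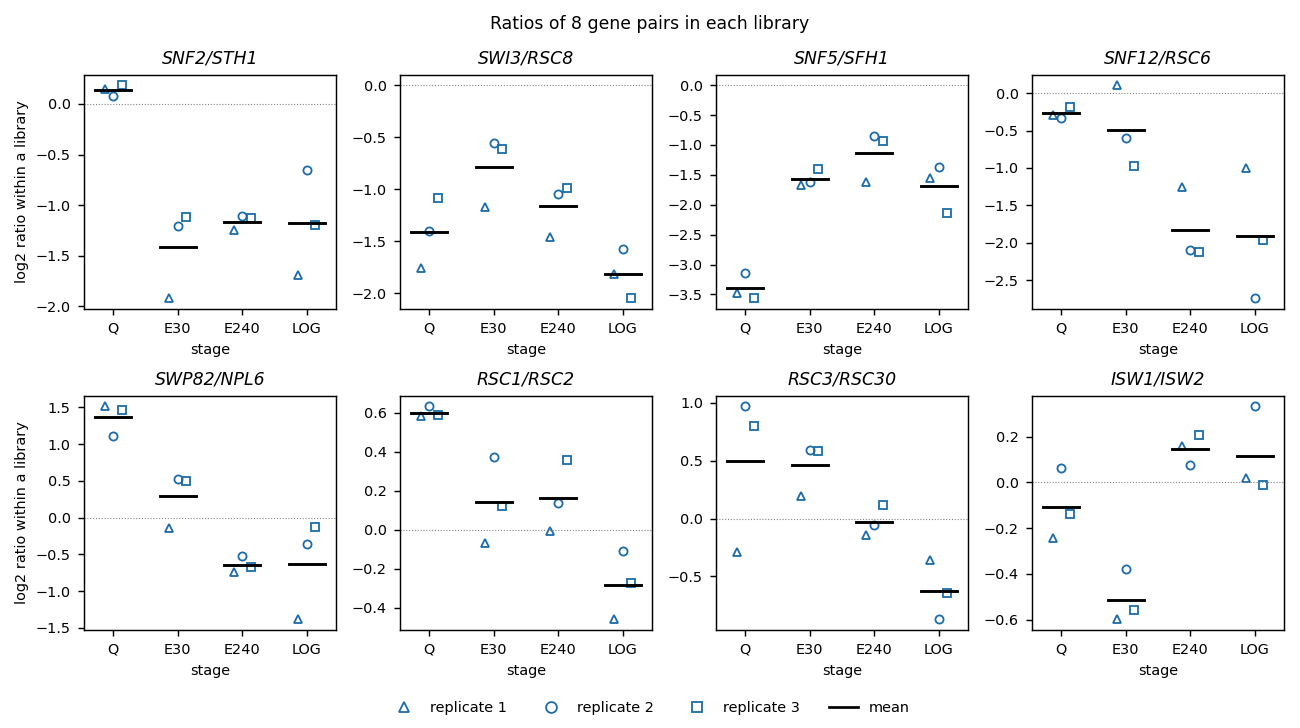
Log2 ratio of 2 genes within each library (vertical axis) at Q, E30, E240 and LOG (horizontal axis) for 8 pairs. Triangles, circles and squares are replicates 1, 2 and 3, black bars are means of 3 libraries, and each panel has its own scale. SNF2/STH1 stands at 0.14 in Q and at -1.41, -1.16 and -1.18 later, and SNF5/SFH1 at -3.39 in Q and at -1.57, -1.13 and -1.69 later.

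LOG libraries disagreed on several of these genes. LOG 1 differed from the mean of LOG 2 and LOG 3 by 1.89 on the log2 scale for TAF14, 1.91 for RSC4, 1.31 for NPL6, 1.01 for STH1 and -1.45 for SNF6. Of the 37 genes, 10 were higher in replicate 1 than in the mean of the other two at all 4 stages and 7 were lower at all 4, and 3 of the 10 (TAF14, IES1 and IES2) were over 0.5 higher on the log2 scale at each stage. Relative to the mean of E240, RSC4 was higher in LOG 1 and lower in LOG 2 and LOG 3, and SNF6 was higher in LOG 2 and LOG 3 and near 0 in LOG 1. The part of the LOG 1 library in the comparisons with LOG is given above by the counts without it, and what sets it apart was not tested.

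**Figure D4:**
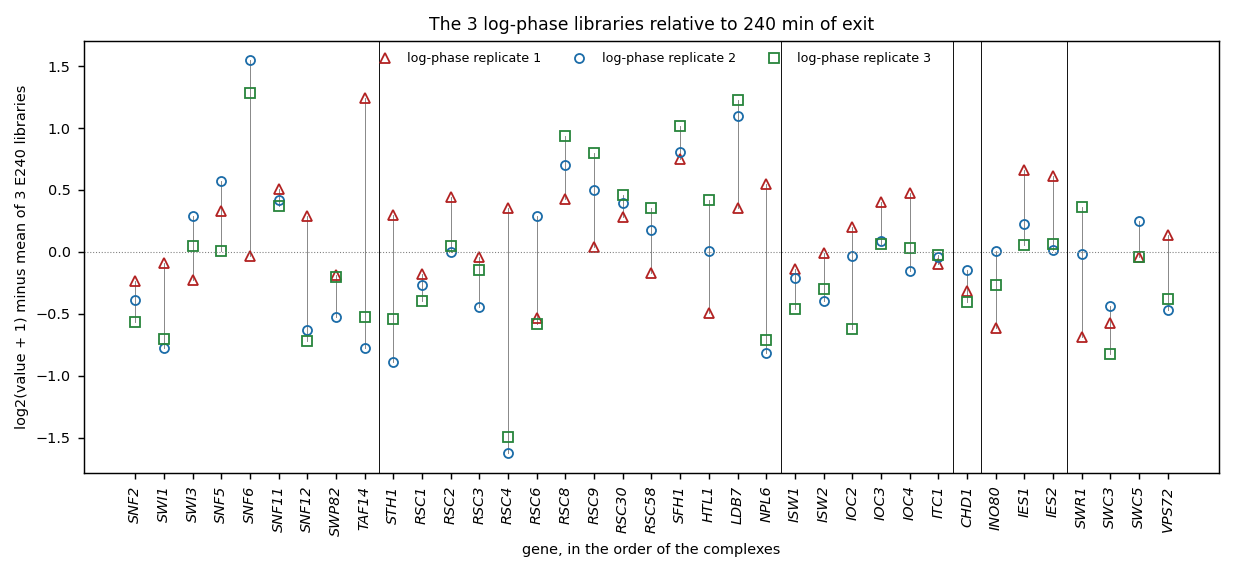
Log2(value + 1) of each of the 3 LOG libraries minus the mean of the 3 E240 libraries (vertical axis) for the 37 genes (horizontal axis, in the order of the groups, vertical lines between groups). Triangles, circles and squares are LOG replicates 1, 2 and 3, joined by a thin line. LOG 1 stands apart from LOG 2 and LOG 3 for SNF6, TAF14, RSC4, NPL6 and STH1, while for LDB7 and SFH1 all 3 are above 0.

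Per kb of coding length, levels of the 37 genes spanned 88.2 ± 15.6 (SNF5) to 3874 ± 436 (SNF6) units per kb in Q, 123 ± 14.5 (SNF2) to 1556 ± 217 (HTL1) in E30, 152 ± 7.91 (SWI1) to 1909.9 ± 128 (RSC8) in E240 and 108 ± 30.0 (SWI1) to 3101 ± 539 (RSC8) in LOG, as means ± SD of 3 libraries. SNF6, SNF11, RSC8, SFH1, IES2 and LDB7 were the highest 6 in Q, and SNF6, SNF11, RSC8 and LDB7 were among the highest 6 at all 4 stages. The lengths leave out the untranslated ends of the transcripts. This can raise the level per kb of short genes such as HTL1 (237 coding bases), SNF11 (510) and LDB7 (543). Neighbours in the order rarely differed beyond their spread. Of 36 neighbouring pairs, the ranges of the 3 libraries did not overlap in 4 pairs in Q, 2 in E30, 3 in E240 and 1 in LOG. Among the ATPase genes the level per kb was 362 ± 50.1 for INO80, 344 ± 32.2 for SWR1, 262 ± 17.0 for STH1, 229.7 ± 6.84 for SNF2, 181 ± 45.3 for ISW2, 170.3 ± 59.5 for ISW1 and 165 ± 24.9 for CHD1 in Q. In E240 it was 532 ± 102 for STH1, 437 ± 26.9 for INO80, 406 ± 16.5 for ISW1, 374 ± 52.0 for SWR1, 370.0 ± 8.64 for ISW2, 306 ± 10.4 for CHD1 and 189 ± 26.0 for SNF2. Among the 7 ATPase genes SNF2 was thus in the middle of the order in Q and last in E240.

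**Figure D5:**
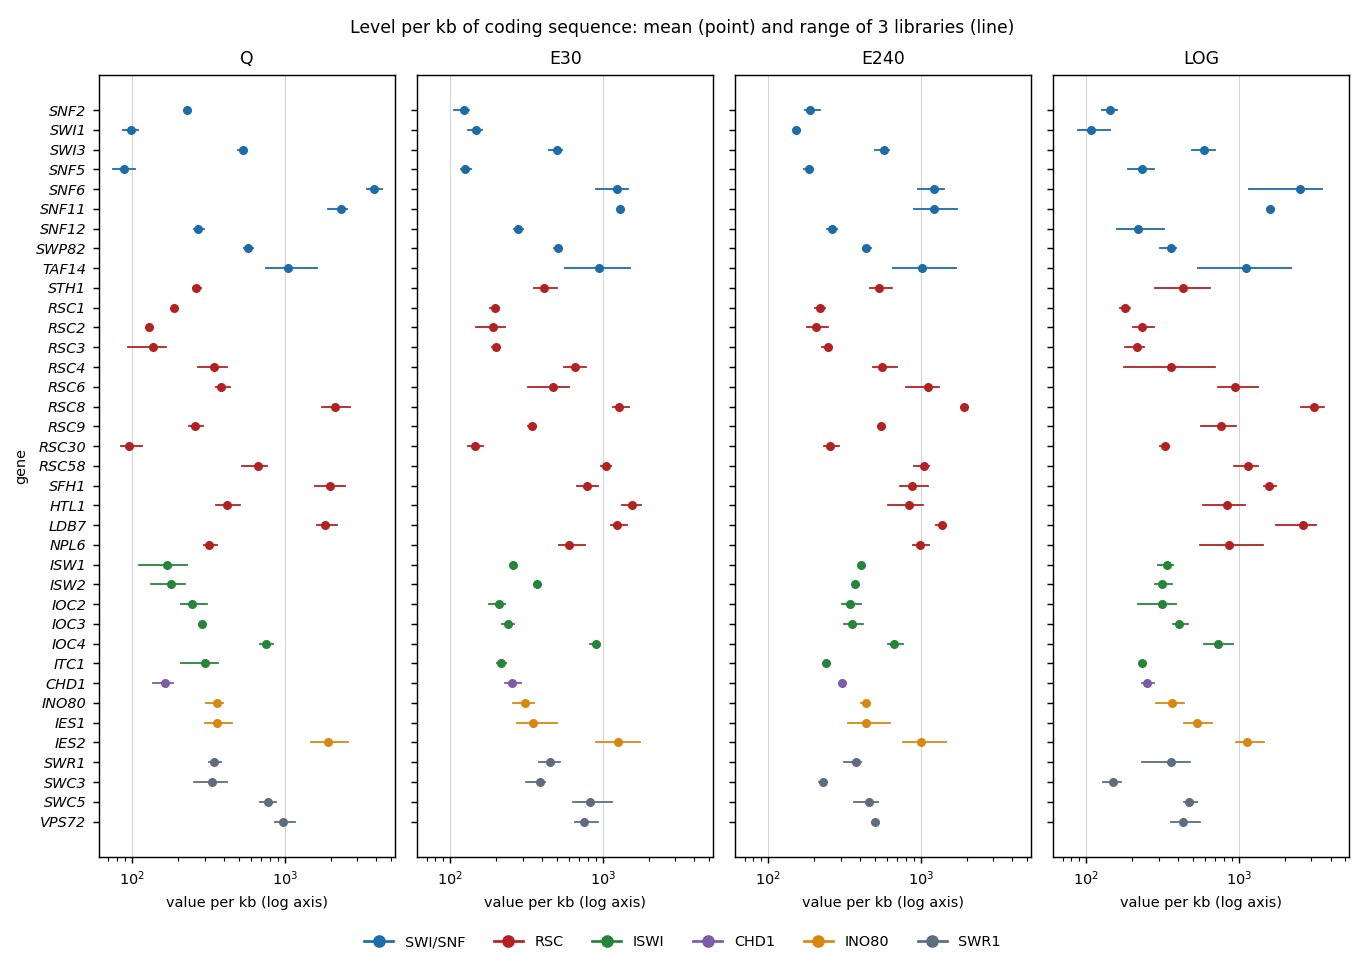
Normalised read count per kb of coding length (horizontal axis, log scale) of the 37 genes (vertical axis), 1 panel per stage, coloured by group, with points for means and lines for the range of 3 libraries. SNF6 leads in Q at 3874 units per kb, HTL1 in E30 at 1556, and RSC8 in E240 and LOG at 1909.9 and 3101.

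Further subunits of the same machines, on a list of 21 genes outside the 37, gave 6 rises and 3 falls in E30 against Q, 2 and 0 in E240 against E30, 0 and 1 in LOG against E240, 7 and 4 in E240 against Q and 8 and 4 in LOG against Q. For this list and the next, 20.6% of all genes rose and 23.7% fell in E30 against Q, and 13.3% and 14.0% in E240 against E30. The shares were 3.27% and 4.09% in LOG against E240, 29.1% and 29.5% in E240 against Q, and 28.8% and 27.8% in LOG against Q. Neither list was tested against them. RVB1, for a helicase-like ATPase shared by INO80 and SWR1, rose by 1.50 ± 0.23 (adjusted p = 0.000377) in E30 against Q and by 2.21 ± 0.23 (adjusted p = 8.98e-06) in E240 against Q. The RVB1 values were 1920.2, 2522 and 2569 in E30 against 837, 811 and 814 in Q, without overlap. ARP9, for an actin-related protein that SWI/SNF and RSC share, rose by 1.44 ± 0.24 (adjusted p = 0.000276) in E240 against Q, and NHP10, for an INO80 subunit, by 1.00 ± 0.24 (adjusted p = 0.00546) in E30 against Q. BDF1, for a bromodomain protein of SWR1 and TFIID, fell, at -0.99 ± 0.18 (adjusted p = 0.00107) in E30 against Q and -1.85 ± 0.18 (adjusted p = 5.18e-06) in LOG against Q. Of 10 other ATPases of the Snf2 family, 3 rose and 2 fell in E30 against Q, 2 rose and 2 fell in E240 against E30, 0 rose and 1 fell in LOG against E240, 3 rose and 3 fell in E240 against Q, and 2 rose and 4 fell in LOG against Q. FUN30, for a remodeler of silent chromatin, rose by 1.51 ± 0.22 (adjusted p = 0.000265) in E30 against Q, at 1093, 1165 and 1238 in E30 libraries against 314, 478 and 448 in Q libraries. RAD54, for an ATPase of recombination repair, fell, at -0.81 ± 0.19 (adjusted p = 0.00806) in E240 against E30 and -1.64 ± 0.19 (adjusted p = 1.74e-05) in LOG against Q.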

How the data were processed

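The authors' deposited values are normalised read counts (a signal with no unit) for 6120 genes in 12 libraries. They are read counts divided by 1 size factor per library. Per the submitters' processing notes bedtools, DESeq2, DESeq, HTSeq 0.6.1 and STAR 2.5.2a were among the tools, with the sacCer3 build, and their roles and any strand setting are not given in the sources used here. Per the labels' protocols, poly(A) libraries were made with NEBNext Ultra II and read as single 75 bp ends.

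Whole reads were recovered from the steps between low values: 100% of values came out whole within 1e-06. Libraries held 1195233 to 15100323 reads. The values are not raw counts, so limma 3.58.1 (R 4.3.3, intensity trend) on log2(value + 1) was the main test, with the 4 stages in 1 model (8 residual degrees of freedom), as set for normalised values. It ran on 5871 genes with a mean of at least 10, and 124 genes were at 0 in all libraries. Adjusted p-values are Benjamini-Hochberg over these genes for each comparison, called under 0.05. Log2 ratios of 8 gene pairs were tested by exact permutation of the libraries, two-sided by construction of F, and adjusted over the 8 pairs. Coding lengths came from the R64 annotation, where all 37 genes were found, and promoters were read with Python 3.11.15, numpy 2.4.6 and pandas 2.3.3.

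On the recovered reads, edgeR 4.0.16 (quasi-likelihood) and DESeq2 1.42.0 were run as alternatives, beside TMM and total-count scaling, pseudocounts of 0.5 and 5, no filter, a mean of at least 50, the compared groups fitted alone, the replicate number as a block, and leaving out single libraries or all libraries numbered 1. The limma scripts were tested on simulated data. The most alike replicate pair differed by 3.75 times the sampling noise (chi-square per degree of freedom), so none was counted as a repeat.

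The labels do not say what a replicate number marks. Same-numbered libraries of different stages, 18 pairs in all, deviated together from their stage means (r between 0.134 and 0.582 over genes). Number 1 against numbers 2 or 3 gave r between -0.604 and -0.197. Number 2 with number 2 gave 0.134 to 0.394, no higher than the 0.210 to 0.553 of number 2 against number 3. Number 3 with number 3 gave 0.320 to 0.582, which overlapped that range and reached slightly above it. Most of the pattern was thus replicate 1 against the other two, and numbers 2 and 3 were not shown to be paired. The main tests had no block, and the replicate number was a block only as an alternative.

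The 37 genes and all gene lists were chosen by name, with earlier results of these data known. Values in every library are given for the 7 ATPase genes, the genes of the 8 pairs and the 3 called genes with the largest change each way in each successive comparison. From other lists, up to 4 called genes of largest change per comparison could be named. Further SWR1 subunits are named in E240 against Q whatever their change, after their values were seen. RSC2 overlaps a gene on the other strand, as given beside its values. Protein sequences were not used here.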

Additional observations from a re-analysis of the deposited data

How the results depend on the processing

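No called result changed sign. These group medians minus that of all genes, which have no test, did: RSC in LOG against E240 (-0.0628 without E240 1 and -0.0578 without LOG 3), ISWI there (0.0104 without LOG 3), SWI/SNF there (0.0337 without LOG 3) and in E240 against E30 (-0.0196 without E30 1 and -0.00355 without all libraries numbered 1), and INO80 in E240 against Q (-0.0614 without E240 1) and in LOG against Q (0.128 without LOG 1, 0.00630 without Q 2 and 0.00701 without all libraries numbered 1). Total-count scaling gave, of the 37 genes, 14 that rose and 3 that fell in E30 against Q, 1 and 7 in E240 against E30, 0 and 3 in LOG against E240, and 4 and 12 in LOG against Q. All genes called in LOG against E240 were 805 with it, and over all genes its rises and falls were 1670 and 978, 328 and 1941, 112 and 693, 1376 and 2034, and 978 and 2387 (E30 against Q, E240 against E30, LOG against E240, E240 against Q, LOG against Q), against 1211 and 1394, 779 and 823, 192 and 240, 1708 and 1734, and 1691 and 1635 as deposited. Without all libraries numbered 1, 4191, 3558 and 3674 genes were called in the 3 successive comparisons, with 16 and 10, 13 and 7, and 9 and 11 of the 37 that rose and fell, 11 that fell in E240 against Q and 12 in LOG against Q. The replicate block gave 11 and 5 in E240 against E30, 4 and 1 in LOG against E240 and 1066 genes called there. It changed no call of the 37 genes in the 5 comparisons or the F test other than those given above, and all 8 pair ratios kept their side of the threshold with it. The compared groups alone gave 11 and 5 in E240 against E30 (1080 and 1176 of all 5855 genes tested), 0 rises in LOG against E240 and 19 genes called there. In E240 against E30, edgeR gave 8 rises and DESeq2 9, where 815 and 968 of all 5871 genes rose. In LOG against E240, DESeq2 gave 4 rises, 1 fall and 925 genes called. Leaving out single libraries gave 3 to 14 rises in E30 against Q, 2 to 11 rises and 0 to 5 falls in E240 against E30 (1011 to 2280 genes called), 0 to 5 rises and 0 to 5 falls in LOG against E240 (48 to 2076 genes called) and 4 to 8 falls in LOG against Q. Where these alternatives drop libraries or genes their construction is the change, and otherwise the cause was not tested. Group medians minus that of all genes moved by more than their spread without all libraries numbered 1 for SWI/SNF in E30 against Q (-0.0111), RSC in E240 against Q (0.646) and SWR1 in E240 against E30 (-0.416). Leaving out single libraries they ranged over -0.156 to -0.00738 for SWI/SNF in E30 against Q, -0.0628 to 0.140 for RSC in LOG against E240, 0.650 to 0.793 for RSC in LOG against Q, -0.656 to -0.477 for SWR1 in E240 against E30 and -0.257 to -0.129 for SWR1 in LOG against E240. Adjusted p of the pair ratios by exact permutation ranged over 0.0158 to 0.0657 for SWI3/RSC8, 0.0110 to 0.0511 for SNF12/RSC6 and 0.00156 to 0.102 for RSC3/RSC30, and without all libraries numbered 1 was 0.105 for SNF2/STH1 and 0.0871 for ISW1/ISW2. Both pseudocounts and both other filters changed no call of the 37 genes except that of SWC3 in E240 against Q with no filter, and that of SNF5 in E240 against E30, gained with a mean of at least 50. Q depth limits low genes such as HTL1, and with 8 residual degrees of freedom a p above the threshold does not show that stages were alike.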

Other observations

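Histone chaperones and H2A.Z genes, 18 in all, hand histones to or take them from the same nucleosomes that remodelers move. Of the 18, 2 rose and 4 fell in E30 against Q, 5 rose and none fell in E240 against E30, 1 rose and none fell in LOG against E240, 3 rose and 3 fell in E240 against Q, and 4 rose and 1 fell in LOG against Q. Over all genes tested, 20.6% rose and 23.7% fell in E30 against Q, and 13.3% and 14.0% in E240 against E30. The shares were 3.27% and 4.09% in LOG against E240, 29.1% and 29.5% in E240 against Q, and 28.8% and 27.8% in LOG against Q. The 18 genes were not tested against them. NAP1, for a chaperone of H2A and H2B, was at 3256, 2407 and 2529.6 in E30 against 12769, 5992 and 6483 in Q, without overlap, and fell, at -1.55 ± 0.29 (adjusted p = 0.00121). ASF1, for a chaperone of H3 and H4, was at 1291, 1506 and 1492 in E30 against 356, 695 and 633 in Q, again without overlap, and rose by 1.40 ± 0.29 (adjusted p = 0.00217). SPT16, for a subunit of the chaperone FACT, changed by -0.67 ± 0.18 (adjusted p = 0.0088) in E30 against Q and by 0.73 ± 0.18 (adjusted p = 0.00967) in E240 against E30, and both calls ended with total-count scaling. HTZ1, the H2A.Z gene, is named after its values were seen, because it encodes the histone that SWR1 deposits. HTZ1 was at 1015, 798 and 800.4 in E240 against 948, 706 and 744 in Q and was not called, at 0.13 ± 0.35 (adjusted p = 0.771), while SWC3, SWC5 and VPS72 of SWR1 fell in the same comparison. Whether HTZ1 differed from those genes was not tested.

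Each of the 37 genes was highest, by its stage mean, in Q for 8, in E30 for 8, in E240 for 10 and in LOG for 11. Of the 14 RSC genes 1 was highest in Q, 2 in E30, 5 in E240 and 6 in LOG. Of the 9 SWI/SNF genes 4 were highest in Q, 1 in E30, 1 in E240 and 3 in LOG. The same shares over all genes tested were 35.8% in Q, 18.8% in E30, 18.4% in E240 and 27.0% in LOG. IES1 and IES2 had their highest value of each stage in replicate 1, as TAF14 did, and their differences from replicates 2 and 3 were 0.52, 0.86, 0.88 and 0.52 for IES1 and 0.72, 0.81, 0.92 and 0.57 for IES2 on the log2 scale in Q, E30, E240 and LOG.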
